A study of Homo sapiens with 12 samples.

Results

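CAMA-1 cells given abemaciclib at 100 nM were compared with CAMA-1 cells given the DMSO vehicle, over every gene that passed a filter on low counts. The comparison took 6 of the 12 libraries of the study, 3 replicates in each group, and 11803 genes of 60612 named rows in the count table. The other libraries came from cells given fulvestrant at 5 nM or both drugs. They entered the same fit, so that all groups shared 1 estimate of the spread, and the 3 fulvestrant libraries served as a further reference where a change was asked to differ between the drugs. CAMA-1 is an established human breast cancer line of luminal type that expresses the oestrogen receptor (ER). The labels give it as wild type, grown in RPMI-1640 with serum. Cells were treated for 5 days, and the replicates are described as independent cultures from an experiment done once.

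Abemaciclib inhibits the cyclin-dependent kinases CDK4 and CDK6, which act with D-type cyclins to phosphorylate the retinoblastoma protein Rb. Unphosphorylated Rb binds E2F factors, and cells then stop before S phase. Genes of DNA replication and mitosis are the best known transcripts to fall under such drugs, and ER-positive cells are a main setting in which they are used. Those genes and the oestrogen-responsive genes were therefore set aside as 2 lists, and the account below follows the other pathways and families. The question was which of these moved when CDK4/6 was inhibited alone.

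RNA was read from the 3′ end of polyadenylated transcripts, and values are given as CPM, counts scaled to the same library total with TMM factors. Levels are given per library in replicate order or as mean ± SD (n = 3 libraries), and log2 fold changes, abemaciclib over DMSO, with their SE where shown. Total counts ran from 3299119 to 5164667 in the 6 libraries. Across genes, libraries of the same group correlated at 0.982 or higher and libraries of different groups at 0.948 or lower (Pearson correlations of log2 CPM, a description of these libraries). All 11 luminal markers were among the genes tested, and their summed level was 6940 to 7320 CPM in DMSO and 8510 to 8640 CPM in abemaciclib. None of the 10 immune markers passed the filter, 8 of 10 fibroblast markers were at 0 in all 6 libraries, and 8 of 10 endothelial markers did not exceed 3 counts in any library. Mitochondrial transcripts took 12.0 to 12.5% of counts in DMSO and 17.4 to 18.6% in abemaciclib.

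Abemaciclib changed 4864 of the 11803 genes tested, or 41.2% (p from edgeR's quasi-likelihood test, adjusted by Benjamini-Hochberg over all genes and called below 0.05). Of these, 2415 (20.5%) were higher and 2449 (20.7%) lower, and the median log2 fold change over all genes was 0. Counts of list members higher and lower than DMSO, given below, are to be read beside these shares. The 3 libraries of each group did not overlap for 6392 genes, or 54.2%. Most genes named below were chosen by a rule that asks for this, so it carries no weight of its own. In the cell cycle list, 282 of its 305 tested members were lower and 1 was higher. In the oestrogen response list, 99 of 170 tested members were higher and 16 lower. Neither list need hold every gene of its kind. Whether changes outside them, such as that of CTSD below, are separate from these responses was not tested. Outside both lists stood 11328 genes, of which 2315 were higher and 2151 lower. At least a 2-fold change was measured for 554 of the higher and 433 of the lower genes, and at least 4-fold for 94 and 54. Of these 4466 called genes, 1291 belonged to at least 1 of the 68 pathway and family lists described here and 3175 to none. Because the cells were measured in bulk, fewer cells of a type and less RNA per cell cannot be told apart.

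**Figure D1:**
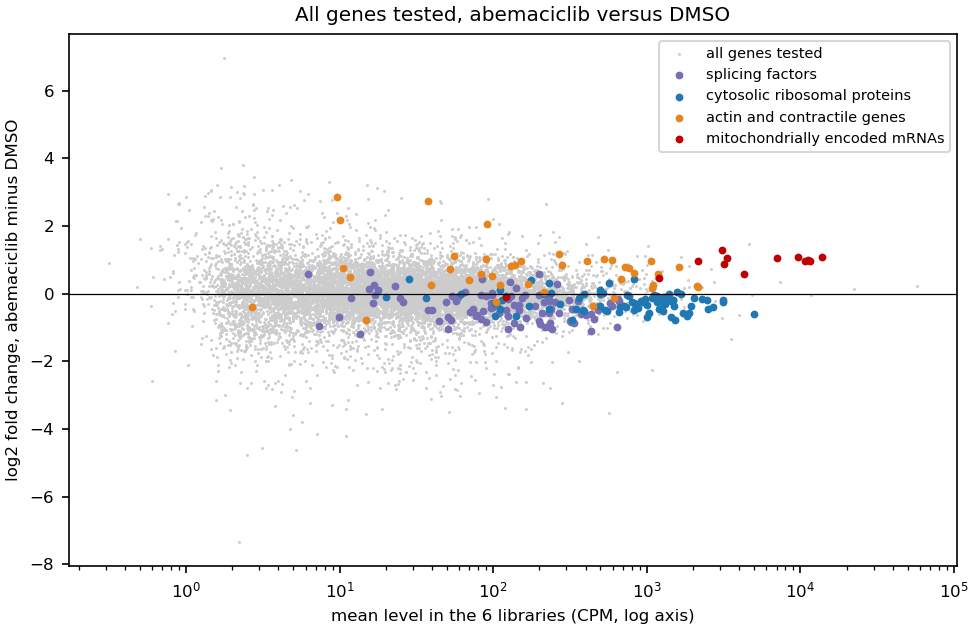
Log2 fold change (abemaciclib minus DMSO) of the 11803 genes tested against their mean level in the 6 libraries (CPM, log axis). Grey points are all genes tested, and coloured points are members of 4 lists: actin and contractile genes (orange), mitochondrially encoded mRNAs (red), cytosolic ribosomal proteins (blue) and splicing factors (purple). The orange and red points lie mostly above 0 and the blue and purple points mostly below it.

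Genes of the actin cytoskeleton rose together. Of 40 tested members, 30 were higher and 2 lower, with a median log2 fold change of 0.67 against 0 for all genes. Members known from smooth muscle and myoepithelial cells moved furthest. ACTA2, the first of them, had at most 11 counts in any DMSO library, near the filter. A gene so low in DMSO is tested mainly when a treated group lifts it. This order was therefore partly set by the filter and carries no weight. ACTA2, which encodes smooth muscle alpha-actin, stood at 3.27, 1.71 and 2.27 CPM in DMSO and 18.6, 17.2 and 14.7 CPM in abemaciclib. Its libraries did not overlap between the groups, and the difference was significant (log2 fold change 2.85 ± 0.24, adjusted p = 2.76e-10). MYLK encodes myosin light chain kinase, which phosphorylates the myosin regulatory light chain and so starts contraction. It measured 5.34, 9.88 and 13.2 CPM in DMSO and 80.2, 65.6 and 51.8 CPM in abemaciclib (log2 fold change 2.75 ± 0.20, adjusted p = 3.41e-09). Every abemaciclib library stood far above the highest DMSO library. ACTG2, the smooth muscle gamma-actin, gave 4.45, 3.04 and 3.72 CPM in DMSO and 22.8, 14.8 and 11.6 CPM in abemaciclib (log2 fold change 2.18 ± 0.27, adjusted p = 3.79e-07).

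Non-muscle myosin and its light chains increased, with MYH9 at 1.02, MYL9 at 0.98 and MYL12A at 1.19 on the log2 scale. So did the filament crosslinkers FLNA (0.96) and ACTN1 (0.86), and GSN (2.05), which encodes the severing protein gelsolin. The cytoplasmic actin gene ACTB changed by 0.76 and passed (adjusted p 0.00821), while ACTG1 had 0.19 and did not (adjusted p 0.297). MYH10, a second non-muscle myosin heavy chain, went the other way, at 16, 19.6 and 21.1 CPM in DMSO and 11.2, 12.1 and 9.60 CPM in abemaciclib (log2 fold change −0.79 ± 0.18, adjusted p = 0.000795). TPM3, a tropomyosin, was the other member to fall (−0.35). Near-identical paralogues could share reads in actin, tubulin, keratin and ribosomal protein genes, and how the counting treated such reads is not stated.

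Of 10 basal and myoepithelial markers, the 3 tested were all higher: MYLK, ACTG2 and OXTR, the oxytocin receptor (0.93). The first pair also belongs to the contractile list. The summed level of the 10 markers was 17.8 to 24 CPM in DMSO and 76.1 to 118 CPM in abemaciclib. The defining basal markers KRT5 and CNN1 were at 0 in all 6 libraries, and KRT14 and TP63 did not exceed 3 counts in any.

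The promoters of ACTG2 and MYLK are shown because both genes rose more than 4-fold and because each holds a CArG box, the motif bound by serum response factor, which is known to drive smooth muscle actin genes (CC, 6 bases that are A or T, then GG). The sequences are the 250 bases before the RefSeq start on GRCh38.p14, 5′ to 3′ on the gene's strand, with each CArG box in capitals. ACTG2 (chr2:73892758-73893007, plus strand) holds 2 and MYLK (chr3:123620549-123620798, minus strand) holds 1. The MYLK window is the start of a short transcript near the 3′ end of the gene (chr3:123610049-123884332), and reads from the 3′ end do not tell which start was used.
ACTG2: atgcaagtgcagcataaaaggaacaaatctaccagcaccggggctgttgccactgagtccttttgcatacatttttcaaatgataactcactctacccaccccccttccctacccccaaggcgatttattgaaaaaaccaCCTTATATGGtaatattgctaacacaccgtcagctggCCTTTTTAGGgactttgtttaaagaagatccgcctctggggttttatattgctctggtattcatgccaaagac
MYLK: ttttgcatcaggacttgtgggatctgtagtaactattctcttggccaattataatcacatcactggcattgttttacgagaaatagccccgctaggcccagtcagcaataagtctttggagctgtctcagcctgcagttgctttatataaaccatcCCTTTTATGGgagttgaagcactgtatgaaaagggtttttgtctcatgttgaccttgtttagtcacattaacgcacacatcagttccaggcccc
Searched on both strands, 7 of 57 promoters of 36 tested contractile genes held the box (12.3%), against 1.01% of the 13029 promoters of tested genes and 1.16% of all 35093 in the table. Besides ACTG2 and MYLK these were promoters of ACTG1, ACTN1, CNN2, FLNA and TPM4. No match was found in the ACTA2 windows, which says only that the exact letters are not there.

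Keratins, the intermediate filaments of epithelia, were higher in 10 of 12 tested genes and lower in 1, with a median of 1.80. Among the tested keratins, those low in vehicle gained most. A keratin near the floor in DMSO, such as KRT16, could be tested only if a treated group lifted it. This order was therefore partly set by the filter and carries no weight. KRT16, a keratin of stressed and hyperproliferative epidermis, read 1.78, 1.14 and 1.45 CPM in DMSO and 13.2, 9.27 and 10.4 CPM in abemaciclib (log2 fold change 2.93 ± 0.32, adjusted p = 2.14e-08). KRT80 read 28.8, 31.9 and 45.7 CPM in DMSO and 186, 159.8 and 149.8 CPM in abemaciclib (log2 fold change 2.21 ± 0.13, adjusted p = 3.04e-11), and KRT81, a hair keratin, 3.86, 3.42 and 2.89 CPM in DMSO and 12.6, 16.6 and 15.2 CPM in abemaciclib (log2 fold change 2.13 ± 0.34, adjusted p = 2.1e-05). In none of these did a DMSO library reach the lowest abemaciclib library. KRT7, a keratin of simple ducts, increased from 213 ± 26.4 to 586 ± 19.3 CPM (log2 fold change 1.46 ± 0.09, adjusted p = 2.85e-13). The pair that marks simple epithelium, KRT8 and KRT18, moved less, by 0.50 and 0.37. KRT10 was the member that fell, by 0.32 (adjusted p 0.0348), with groups that overlapped. Its call was lost without any 1 library other than DMSO replicate 1 (adjusted p 0.0524 to 0.201). Leaving out keratins in the cell cycle or oestrogen lists raised the median to 2.17, and requiring 10 counts in every library lowered it to 0.66.

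Tubulin genes split. Of 12 tested, 3 were higher and 2 lower (25.0% and 16.7%, against 20.5% and 20.7% of all genes tested), with a median of 0.04. TUBA1A, an alpha-tubulin abundant in neurons, was among the 12 largest rises outside the 2 lists of called genes that had at least 10 CPM and whose groups did not overlap. It stood at 2.67, 4.37 and 5.17 CPM in DMSO and 37.2, 32 and 35.1 CPM in abemaciclib (log2 fold change 3.04 ± 0.20, adjusted p = 1.41e-12, chr12:49184686-49189080 on GRCh38, GENCODE v44). TUBB2A rose from 54.9 ± 3.47 to 172 ± 4.86 CPM (log2 fold change 1.65 ± 0.09, adjusted p = 3.25e-14) and TUBA4A from 45.3 ± 1.26 to 122 ± 10.7 CPM (log2 fold change 1.44 ± 0.10, adjusted p = 7.33e-12). TUBA1B, the main alpha-tubulin of dividing cells, fell from 2309 ± 258 to 1447 ± 71.1 CPM (log2 fold change −0.67 ± 0.11, adjusted p = 0.000156).

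**Figure D2:**
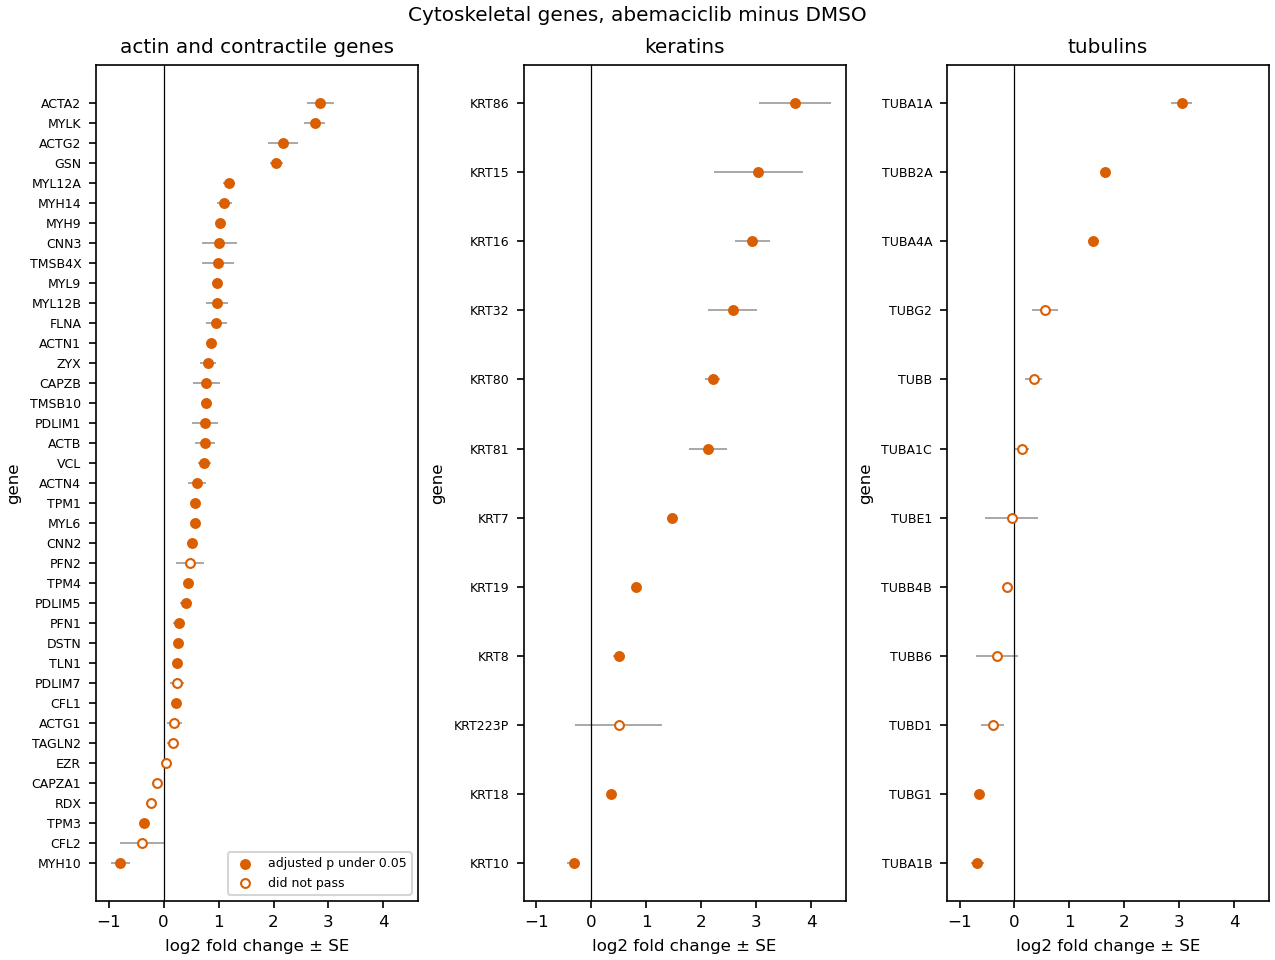
Log2 fold change (abemaciclib minus DMSO) with its standard error for tested actin and contractile genes, keratins and tubulins, ordered within each list, with 1 contractile gene not drawn. Filled points passed the test at an adjusted p under 0.05 and open points did not. Most actin and contractile genes and keratins lie above 0 as filled points, and of the tubulins 3 of 12 do.

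Adhesion and matrix genes rose as well. Among integrins, laminins and collagens, 18 of 27 tested genes were higher and the other 9 did not pass, with a median of 0.74. COL12A1, a fibril-associated collagen, measured 2.67, 3.23 and 3.93 CPM in DMSO and 16.8, 19.9 and 21.5 CPM in abemaciclib (log2 fold change 2.52 ± 0.22, adjusted p = 5.97e-10). COL5A1, a fibrillar collagen, rose from 86.5 ± 5.32 to 184 ± 9.85 CPM (log2 fold change 1.09 ± 0.08, adjusted p = 1.91e-11), and THBS1, the matrix glycoprotein thrombospondin, from 52 ± 1.83 to 111 ± 11.2 CPM (log2 fold change 1.09 ± 0.11, adjusted p = 4.28e-09). LAMB2, a laminin chain of the basement membrane, had 11.3, 6.84 and 11.6 CPM in DMSO and 20.8, 23.2 and 17.2 CPM in abemaciclib (log2 fold change 1.07 ± 0.19, adjusted p = 3.64e-05). Requiring 10 counts in every library lowered the median of the list to 0.43.

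Of 45 epithelial junction genes, 25 were higher and 2 lower, with a median of 0.34. PERP, a desmosome protein that p53 family members induce, rose from 21.3 ± 0.982 to 52.7 ± 3.36 CPM (log2 fold change 1.30 ± 0.12, adjusted p = 9.06e-10). PARD6B, part of the PAR polarity complex, gave 107, 137 and 153 CPM in DMSO and 306, 306 and 275 CPM in abemaciclib (log2 fold change 1.15 ± 0.12, adjusted p = 4.88e-07). Neither gene's groups overlapped. Axon guidance receptors and ligands, many of which also act between epithelial cells, were higher in 13 of 36 and lower in 4. Plexin receptors were among those that rose, with PLXND1 at 1.38, PLXNB2 at 1.09 and PLXNA3 at 0.92, while the SLIT receptor ROBO2 fell from 17.6 ± 3.96 to 9.32 ± 2.00 CPM (log2 fold change −0.92 ± 0.23, adjusted p = 0.00205).

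**Figure D3:**
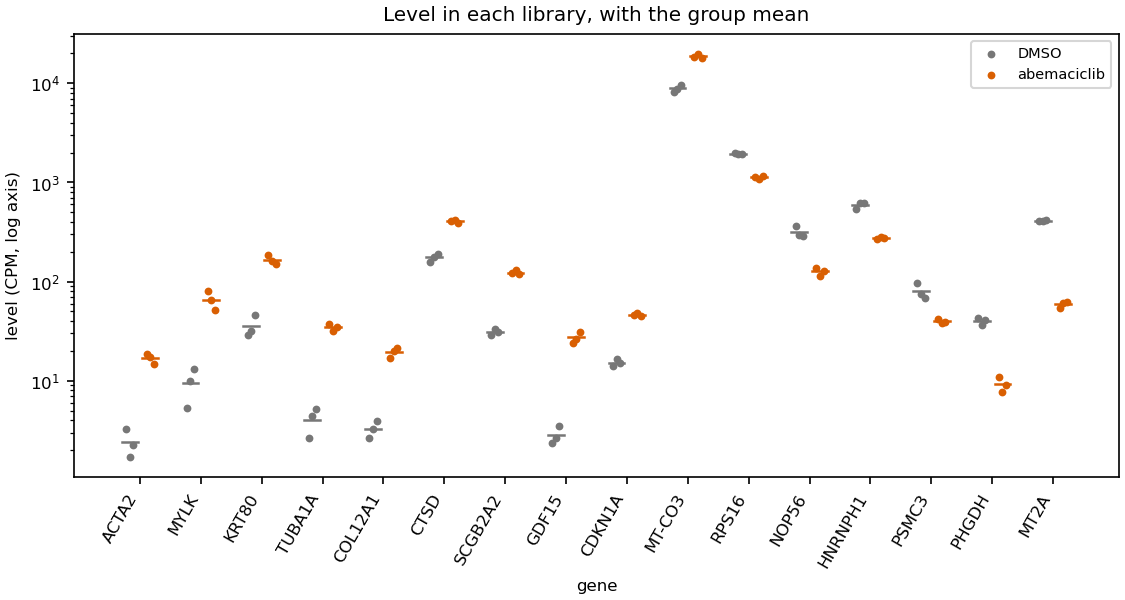
Level of 16 genes in each of the 3 DMSO (grey) and 3 abemaciclib (orange) libraries, in CPM on a log axis, with 1 point a library and a bar at the group mean. In each of the 16 genes the 6 points separate by group: 10 genes are higher under abemaciclib and 6 lower.

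Genes of the lysosome rose. Hydrolases and lysosomal membrane proteins were higher in 27 of 50 tested genes and lower in 3, with a median of 0.42. CTSD, the aspartyl protease cathepsin D, measured 159, 176 and 191 CPM in DMSO and 410.2, 416 and 388 CPM in abemaciclib (log2 fold change 1.21 ± 0.10, adjusted p = 1.43e-10). GM2A, the activator protein for ganglioside breakdown, rose from 38 ± 4.65 to 74.6 ± 3.89 CPM (log2 fold change 0.97 ± 0.11, adjusted p = 2.4e-08), and HGSNAT, an enzyme of heparan sulphate breakdown, from 38.5 ± 2.05 to 73.3 ± 4.42 CPM (log2 fold change 0.93 ± 0.10, adjusted p = 1.86e-08). GUSB, beta-glucuronidase, fell from 71.6 ± 2.91 to 46.3 ± 5.51 CPM (log2 fold change −0.62 ± 0.10, adjusted p = 1.91e-05). Of the 17 subunits of the vacuolar ATPase that acidifies the lysosome, 6 were higher and 2 lower, with ATP6V1G1 going from 314 ± 28.9 to 550.3 ± 14.4 CPM (log2 fold change 0.81 ± 0.08, adjusted p = 8.82e-09).

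The promoters of GAA and PLBD2, which encode the glycogen-degrading alpha-glucosidase and a lysosomal phospholipase-like protein, are given because both genes rose and both hold TCACGTGA, the core of the element through which TFEB is known to act on lysosomal genes. GAA changed by 0.87 and PLBD2 by 0.88 (adjusted p 1.25e-06 and 0.000125). The windows are again the 250 bases before the RefSeq start on GRCh38.p14, with the motif in capitals, for GAA (chr17:80101331-80101580, plus strand) and for PLBD2 (chr12:113358337-113358586, plus strand).
GAA: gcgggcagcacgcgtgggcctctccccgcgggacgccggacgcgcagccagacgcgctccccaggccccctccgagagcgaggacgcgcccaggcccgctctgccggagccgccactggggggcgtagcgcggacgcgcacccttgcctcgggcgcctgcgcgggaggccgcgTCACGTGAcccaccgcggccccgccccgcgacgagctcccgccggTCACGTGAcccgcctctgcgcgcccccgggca
PLBD2: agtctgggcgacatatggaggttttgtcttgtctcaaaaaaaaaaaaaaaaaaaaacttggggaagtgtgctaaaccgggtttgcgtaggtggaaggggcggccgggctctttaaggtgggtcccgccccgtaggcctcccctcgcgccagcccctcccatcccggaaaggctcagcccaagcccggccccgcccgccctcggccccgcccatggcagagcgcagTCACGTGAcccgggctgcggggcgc
Of 43 promoters of 35 tested lysosomal genes, 6 held the motif (14%), against 1.57% of the promoters of tested genes and 0.855% of all promoters. The other genes with a match were CTSA, GALNS, IGF2R and LAMP1, and of these CTSA did not pass (−0.21, adjusted p 0.221).

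Of 50 autophagy genes 13 (26.0%, against 20.5% of all genes tested) were higher and 2 lower (median 0.14). WIPI1, which binds the growing autophagosome membrane, measured 18.4, 13.7 and 15.9 CPM in DMSO and 52.6, 52.5 and 49.8 CPM in abemaciclib (log2 fold change 1.71 ± 0.14, adjusted p = 2.18e-10). ULK1, the kinase that starts autophagy, rose from 33 ± 4.41 to 69.3 ± 4.30 CPM (log2 fold change 1.06 ± 0.12, adjusted p = 3.19e-08) and MAP1LC3B, which encodes the autophagosome protein LC3B, from 45.3 ± 6.93 to 81.7 ± 4.36 CPM (log2 fold change 0.86 ± 0.10, adjusted p = 1.83e-07). RB1CC1, a scaffold of the ULK1 complex, fell by 0.45. In the endoplasmic reticulum, chaperones and folding enzymes were higher in 16 of 52 and lower in 2 (median 0.20), led by DNAJB9 at 7.12, 8.17 and 7.65 CPM in DMSO and 19.8, 19.2 and 22.7 CPM in abemaciclib (log2 fold change 1.41 ± 0.19, adjusted p = 1.34e-06). The major chaperone HSPA5 had 0.31. CREB3L1, a membrane-bound factor that drives genes of secretion, rose from 17.9 ± 0.910 to 40.4 ± 2.15 CPM (log2 fold change 1.17 ± 0.13, adjusted p = 3.03e-08). The secretory coat list that holds it had 10 of 60 members higher, or 16.7%, below the 20.5% of all genes tested, and 3 lower.

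The list of luminal secretory genes was higher in 7 of 13 tested genes, and the other 6 did not pass (median 1.01). The 7 include CREB3L1, which encodes the membrane-bound factor named above and not a secreted product. SCGB2A2, mammaglobin, a breast-specific secretoglobin, stood at 29.1, 33.3 and 31.2 CPM in DMSO and 121, 131 and 118 CPM in abemaciclib (log2 fold change 1.98 ± 0.09, adjusted p = 1.65e-15). CLU, the secreted chaperone clusterin, read 593, 551 and 525 CPM in DMSO and 1585, 1450 and 1424 CPM in abemaciclib (log2 fold change 1.42 ± 0.08, adjusted p = 6.3e-14), and AZGP1 rose from 6.43 ± 0.855 to 25.2 ± 3.29 CPM (log2 fold change 1.98 ± 0.21, adjusted p = 1.75e-08). The 3 abemaciclib libraries lay above the 3 DMSO libraries in each. Calcium-binding S100 genes were higher in 6 of 9 and lower in 2. S100A10 rose from 94.1 ± 4.07 to 311 ± 10.2 CPM (log2 fold change 1.72 ± 0.08, adjusted p = 9.65e-16) and its partner ANXA2 from 363 ± 17.7 to 713 ± 38.4 CPM (log2 fold change 0.98 ± 0.08, adjusted p = 1.75e-10), whereas S100A4 fell from 50.1 ± 4.70 to 22 ± 3.58 CPM (log2 fold change −1.18 ± 0.14, adjusted p = 1.32e-07) and ANXA5 from 125 ± 8.01 to 61.6 ± 6.68 CPM (log2 fold change −1.02 ± 0.10, adjusted p = 5.37e-09).

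Stress and arrest genes gave a mixed picture. Of 44 p53 target genes 20 were higher and 5 lower, with a median of 0.40. GDF15, a stress-induced cytokine of the TGF-beta family, changed most at 2.37, 2.66 and 3.51 CPM in DMSO and 24.2, 26.5 and 31.3 CPM in abemaciclib (log2 fold change 3.22 ± 0.28, adjusted p = 7.59e-10, chr19:18374731-18389176). TP53INP1 measured 9.50, 13.9 and 10.3 CPM in DMSO and 35, 39.5 and 39.7 CPM in abemaciclib (log2 fold change 1.73 ± 0.14, adjusted p = 1.55e-10). BBC3, which encodes the cell death activator PUMA, rose from 80.0 ± 13.5 to 136 ± 4.35 CPM (log2 fold change 0.75 ± 0.10, adjusted p = 1.25e-06). MDM2, which restrains p53, had −0.06 and did not pass (adjusted p 0.619), and PPM1D, which encodes a phosphatase that also acts on p53, fell from 13.3 ± 1.79 to 7.74 ± 1.59 CPM (log2 fold change −0.80 ± 0.20, adjusted p = 0.00245). DDB2 (−1.41), AEN, SFN and MDM4 were the other members to fall. With no filter on low counts the median was 0.26.

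Of the 7 tested CDK inhibitor genes 2 were higher and 5 lower. CDKN1A, which encodes p21, stood at 13.9, 16.7 and 15.1 CPM in DMSO and 46.2, 48.1 and 44.7 CPM in abemaciclib (log2 fold change 1.59 ± 0.12, adjusted p = 1.64e-11). CDKN2B, which encodes the CDK4/6 inhibitor p15, read 6.53, 7.60 and 7.44 CPM in DMSO and 28.8, 28.5 and 23.2 CPM in abemaciclib (log2 fold change 1.89 ± 0.17, adjusted p = 1.27e-09). CDKN1B, which encodes p27, fell from 53.1 ± 1.96 to 37.5 ± 2.35 CPM (log2 fold change −0.50 ± 0.11, adjusted p = 0.000623), and CDKN2D, which encodes p19, from 22.4 ± 4.03 to 11.2 ± 3.54 CPM (log2 fold change −0.99 ± 0.20, adjusted p = 0.000218). CDKN2C, itself in the cell cycle list, had −3.42, CDKN1C −1.34 and CDKN2A −0.45. In the BCL2 family 7 of 19 were higher and 3 lower. Members of opposite function rose side by side: MCL1, which protects from cell death, from 182 ± 3.43 to 332 ± 10.5 CPM (log2 fold change 0.87 ± 0.09, adjusted p = 9.99e-09) and the death activators BBC3 and BIK, BIK by 0.60.

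Growth factor signalling genes rose more often than they fell. Among AP-1 and immediate early genes, 17 of 32 were higher and 1 lower (median 0.62). CCN1, a secreted matrix protein, had 9.20, 22 and 23.1 CPM in DMSO and 61.2, 70.4 and 74.5 CPM in abemaciclib (log2 fold change 1.86 ± 0.30, adjusted p = 0.000744); DMSO replicate 1 was the lowest of the 6. IER3 rose from 549.7 ± 46.7 to 1179 ± 53.7 CPM (log2 fold change 1.10 ± 0.08, adjusted p = 2.49e-11). Of the core AP-1 genes JUN rose by 0.94 (adjusted p 5.69e-08). FOS had 1.02 (adjusted p 0.0362) with overlapping groups, and its call was lost without DMSO replicate 1 (adjusted p 0.0922), DMSO replicate 2 (0.133), abemaciclib replicate 2 (0.11) or abemaciclib replicate 3 (0.11). IER5 fell by 0.61. ARC, an immediate early gene of neurons that this list does not hold, had −3.29. Feedback genes of MAPK signalling were higher in 15 of 35 and lower in 2, with the phosphatase gene DUSP8 from 23.2 ± 0.582 to 59.6 ± 6.19 CPM (log2 fold change 1.35 ± 0.12, adjusted p = 4.21e-10). HRAS fell from 62 ± 7.23 to 30.4 ± 3.09 CPM (log2 fold change −1.02 ± 0.12, adjusted p = 8.78e-08).

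Among 32 ERBB receptors, ligands and regulators 14 were higher and 4 lower (median 0.34). ERBB2, the receptor tyrosine kinase HER2, measured 41, 54.9 and 64.1 CPM in DMSO and 114, 125 and 126 CPM in abemaciclib (log2 fold change 1.18 ± 0.11, adjusted p = 1.91e-09). The groups did not overlap. ERBB3, its partner, changed by 0.51 and the ligands TGFA and AREG by 1.17 and 0.92. MIEN1, the neighbour of ERBB2 on chromosome 17, fell by 0.55. Among insulin, IGF and FOXO genes 14 of 35 were higher and 2 lower. PIK3IP1, an inhibitor of PI3-kinase, went from 6.92 ± 0.444 to 26.4 ± 0.657 CPM (log2 fold change 1.93 ± 0.17, adjusted p = 5.3e-10) and PIK3R1, a regulatory subunit of that kinase, from 28.9 ± 2.81 to 76.2 ± 2.51 CPM (log2 fold change 1.41 ± 0.10, adjusted p = 1.28e-11). TXNIP, which limits glucose uptake, read 111, 129 and 145 CPM in DMSO and 348, 398 and 377 CPM in abemaciclib (log2 fold change 1.54 ± 0.11, adjusted p = 1.44e-10). The adaptor genes IRS1 and IRS2 were the members that fell, IRS2 from 10.7 ± 2.49 to 4.18 ± 0.734 CPM (log2 fold change −1.38 ± 0.31, adjusted p = 0.000806).

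TGF-beta and BMP pathway genes were higher in 18 of 42 and lower in 4 (median 0.48). These were 42.9% and 9.52%, where 20.5% of all genes tested were higher and 20.7% lower. The ligand BMP7 stood at 1.78, 1.14 and 1.65 CPM in DMSO and 11, 11 and 8.59 CPM in abemaciclib (log2 fold change 2.76 ± 0.32, adjusted p = 9.8e-08). ID2, a target of BMP signalling, fell from 376 ± 16.7 to 238 ± 17.8 CPM (log2 fold change −0.66 ± 0.09, adjusted p = 5.62e-07), whereas ID1 and ID3 rose, by 0.70 and 1.17. WNT pathway genes were higher in 18 of 45 and lower in 5. Among them the ligand WNT4 rose from 7.85 ± 0.931 to 23.6 ± 3.99 CPM (log2 fold change 1.60 ± 0.20, adjusted p = 2.61e-07), and 5 of the 8 tested frizzled receptor genes were higher, FZD5 by 1.28 (FZD2, FZD4 and FZD8 did not pass, with adjusted p of 0.352, 0.0656 and 0.701). NOTCH genes were higher in 11 of 34 and lower in 5, or 32.4% and 14.7%. In the YAP and TEAD list 12 of 33 were higher and 4 lower, with TEAD4 itself falling from 15.3 ± 1.89 to 5.85 ± 1.10 CPM (log2 fold change −1.36 ± 0.24, adjusted p = 5.69e-05). Hypoxia response genes were higher in 18 of 42 and lower in 6, and their members went far apart: P4HA2 from 23.5 ± 4.17 to 63.1 ± 5.74 CPM (log2 fold change 1.42 ± 0.13, adjusted p = 9.38e-10), but STC1 from 88.8 ± 4.24 to 30.0 ± 0.450 CPM (log2 fold change −1.57 ± 0.11, adjusted p = 3.8e-12).

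Immune-related genes of the tumour cell itself rose in part. Of 15 MHC class I genes 6 were higher and the other 9 did not pass (median 0.48). TAP1, the peptide transporter, measured 8.31, 14.1 and 9.92 CPM in DMSO and 24.2, 24.7 and 24.8 CPM in abemaciclib (log2 fold change 1.15 ± 0.17, adjusted p = 4.56e-06). NF-kappaB targets and cytokines were higher in 11 of 19 and lower in 2, with RELB at 6.83, 5.13 and 4.75 CPM in DMSO and 21.2, 23 and 15.7 CPM in abemaciclib (log2 fold change 1.87 ± 0.22, adjusted p = 8.95e-08) and NFKB2 at 1.14. The adaptor TRAF2 fell from 29.4 ± 0.598 to 13.2 ± 0.936 CPM (log2 fold change −1.15 ± 0.17, adjusted p = 4.26e-06). Interferon-stimulated genes were higher in 12 of 35 and lower in 3. IRF1, the transcription factor, rose from 11.1 ± 1.62 to 19.2 ± 1.15 CPM (log2 fold change 0.78 ± 0.17, adjusted p = 7e-04), and OAS3, an antiviral enzyme, fell from 28.4 ± 2.92 to 11.9 ± 0.559 CPM (log2 fold change −1.26 ± 0.16, adjusted p = 4.56e-07).

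Of the 13 mRNAs of the mitochondrial genome 11 were higher, and MT-ND4L and MT-ND6 did not pass (median 0.98). The summed level of the 13 was 54510 ± 6047 CPM in DMSO and 108400 ± 8871 CPM in abemaciclib. The share of all mitochondrial transcripts, which holds more than these mRNAs, rose by less, from 12.0 to 12.5% of counts to 17.4 to 18.6%. MT-CO3, a subunit of cytochrome oxidase, had 8261, 8748 and 9665 CPM in DMSO and 18370, 19790 and 18030 CPM in abemaciclib (log2 fold change 1.07 ± 0.12, adjusted p = 2.63e-06). MT-CYB read 7058, 7752 and 8610 CPM in DMSO and 14670, 16470 and 14810 CPM in abemaciclib (log2 fold change 0.97 ± 0.14, adjusted p = 0.000107). The groups lay far apart for both. MT-ND3 and MT-ND1, subunits of complex I, rose by 1.07 and 1.30 (adjusted p 0.000862 and 0.00588). MT-ATP6 and MT-ND4 were similar in size (0.99 and 0.98), with adjusted p of 0.0154 and 0.0172. Those 2 calls were lost without DMSO replicate 1 (adjusted p 0.0566 and 0.0624), DMSO replicate 2 (0.0525 and 0.0546) or abemaciclib replicate 2 (0.0514 and 0.0563). In the 3 fulvestrant libraries the mitochondrial share was 17.2 to 20.6% of counts. Leaving these transcripts out before scaling gave 2403 genes higher and 2449 lower.

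Nuclear genes of the same respiratory complexes did not follow. Of 37 complex I subunits 7 were higher and 15 lower (median −0.09), and of 44 other respiratory and ATP synthase subunits 7 were higher and 6 lower (median −0.05). NDUFA9 fell from 66.9 ± 3.38 to 39.1 ± 7.72 CPM (log2 fold change −0.78 ± 0.13, adjusted p = 4.11e-05) and NDUFB11 from 245 ± 16.7 to 164 ± 2.06 CPM (log2 fold change −0.58 ± 0.09, adjusted p = 8.33e-06), while UQCR11 rose from 341 ± 4.32 to 458 ± 14.2 CPM (log2 fold change 0.43 ± 0.07, adjusted p = 1.48e-05). Mitochondrial ribosomal proteins, also nuclear genes, were lower in 30 of 73 and higher in 2 (median −0.22). MRPL11 fell from 154 ± 11.2 to 80.0 ± 3.75 CPM (log2 fold change −0.95 ± 0.09, adjusted p = 2.65e-09), and MRPS21 rose from 302 ± 20.2 to 419 ± 3.17 CPM (log2 fold change 0.47 ± 0.08, adjusted p = 2.3e-05).

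The translation machinery fell broadly and by small amounts. Of 82 cytosolic ribosomal protein genes 47 were lower and 5 higher, with a median of −0.25. RPS16 stood at 1985, 1923 and 1915 CPM in DMSO and 1131, 1082 and 1162 CPM in abemaciclib (log2 fold change −0.79 ± 0.07, adjusted p = 3.62e-10). RPS3, a protein of the small subunit, had 6461, 5984 and 5545 CPM in DMSO and 4144, 3655 and 4131 CPM in abemaciclib (log2 fold change −0.59 ± 0.09, adjusted p = 1.55e-05). RPL10A moved the other way, from 710.5 ± 48.4 to 953 ± 65.9 CPM (log2 fold change 0.42 ± 0.10, adjusted p = 0.00205). RPS24 and RPS6 differed by −0.18 and −0.26 (adjusted p 0.0336 and 0.0278). Both calls were lost without DMSO replicate 2 (adjusted p 0.124 and 0.123), DMSO replicate 3 (0.0972 and 0.0767), abemaciclib replicate 1 (0.085 and 0.105) or abemaciclib replicate 3 (0.0672 and 0.0778), and that of RPS24 also without abemaciclib replicate 2 (0.131), with upper-quartile scaling (0.0569) and with no filter on low counts (0.0987).

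Ribosome biogenesis genes, which encode the nucleolar factors that build ribosomes, were lower in 59 of 121 and higher in 1 (median −0.28). NOP56, a core protein of box C/D small nucleolar ribonucleoproteins, measured 367, 293 and 286 CPM in DMSO and 138, 115 and 129 CPM in abemaciclib (log2 fold change −1.30 ± 0.12, adjusted p = 3.36e-08). NLE1 fell from 25.1 ± 0.755 to 11.5 ± 2.74 CPM (log2 fold change −1.11 ± 0.18, adjusted p = 1.08e-05). The host genes that carry small nucleolar RNAs in their introns were lower in 11 of 21 and higher in 2, with a median of −0.44. SNHG9 read 20.2, 20.1 and 19.8 CPM in DMSO and 6.60, 5.08 and 3.54 CPM in abemaciclib (log2 fold change −1.95 ± 0.22, adjusted p = 6.59e-08) and SNHG19 15.1, 18.2 and 16.9 CPM in DMSO and 4.60, 4.19 and 4.80 CPM in abemaciclib (log2 fold change −1.89 ± 0.23, adjusted p = 1.77e-07). The median of this list was −0.18 when 10 counts were required in every library. Translation initiation factors were lower in 16 of 43 and higher in 1, among them EIF4EBP1, the 4E-binding protein that mTORC1 controls, from 83.4 ± 10.5 to 45.9 ± 5.27 CPM (log2 fold change −0.85 ± 0.14, adjusted p = 2.11e-05). Aminoacyl-tRNA synthetases were lower in 6 of 36 and higher in 4, shares below those of all genes tested.

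RNA processing genes fell. Splicing factors were lower in 62 of 96 tested genes (64.6%, against 20.7% of all genes) and higher in 4, with a median of −0.39. HNRNPH1, an abundant splicing regulator, had 542, 619.9 and 618 CPM in DMSO and 271, 283 and 274 CPM in abemaciclib (log2 fold change −1.10 ± 0.09, adjusted p = 1.84e-10). HNRNPR measured 358, 306 and 309 CPM in DMSO and 161, 144 and 164 CPM in abemaciclib (log2 fold change −1.05 ± 0.09, adjusted p = 4.32e-10). For both genes the DMSO libraries lay above the abemaciclib libraries. By symbol family, 8 of 11 SRSF genes and 9 of 13 PRPF genes were lower and the others did not pass. MBNL2 rose from 12.3 ± 2.43 to 19.4 ± 3.00 CPM (log2 fold change 0.63 ± 0.17, adjusted p = 0.0037). Nuclear pore and transport receptor genes were lower in 31 of 60 and higher in 2 (median −0.33). RANBP1, a regulator of the transport GTPase RAN, stood at 272, 306 and 333 CPM in DMSO and 152, 131 and 159 CPM in abemaciclib (log2 fold change −1.04 ± 0.09, adjusted p = 3.39e-10), and the pore component NUP88 fell from 29.9 ± 5.25 to 15 ± 0.399 CPM (log2 fold change −0.97 ± 0.17, adjusted p = 4.03e-05).

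The letters CCGGAAG, an ETS-type motif common in promoters of housekeeping genes, were found on either strand in 33.1% of 118 promoters of ribosome biogenesis genes, 30.5% of 82 promoters of ribosomal proteins and 22.6% of 115 promoters of splicing factors, against 15.1% of promoters of all tested genes and 8.52% of the whole table.

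Proteasome subunits and assembly factors were lower in 25 of 44, and the other 19 did not pass (median −0.27). PSMC3, an ATPase of the regulatory particle, measured 98, 75.3 and 68.8 CPM in DMSO and 41.8, 38.4 and 39.2 CPM in abemaciclib (log2 fold change −1.01 ± 0.12, adjusted p = 2.05e-07), and PSMB6, a catalytic subunit, 221, 219 and 216 CPM in DMSO and 132, 138 and 142 CPM in abemaciclib (log2 fold change −0.68 ± 0.08, adjusted p = 6.95e-08). Cytosolic chaperones were lower in 22 of 55 and higher in 8, and 25 did not pass (median −0.17), while their summed level was 21810 ± 487 CPM in DMSO and 23300 ± 477 CPM in abemaciclib. HSP90AA1, the inducible HSP90, went from 4827 ± 162 to 3134 ± 92.5 CPM (log2 fold change −0.62 ± 0.07, adjusted p = 3.75e-08) and CCT5, of the chaperonin that folds actin and tubulin, from 582 ± 32.2 to 345 ± 7.27 CPM (log2 fold change −0.76 ± 0.07, adjusted p = 2.37e-09). HSPB1, the small heat shock protein HSP27, was an exception at 2269, 2666 and 2532 CPM in DMSO and 6993, 6370 and 7080 CPM in abemaciclib (log2 fold change 1.45 ± 0.08, adjusted p = 2.46e-14).

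**Figure D4:**
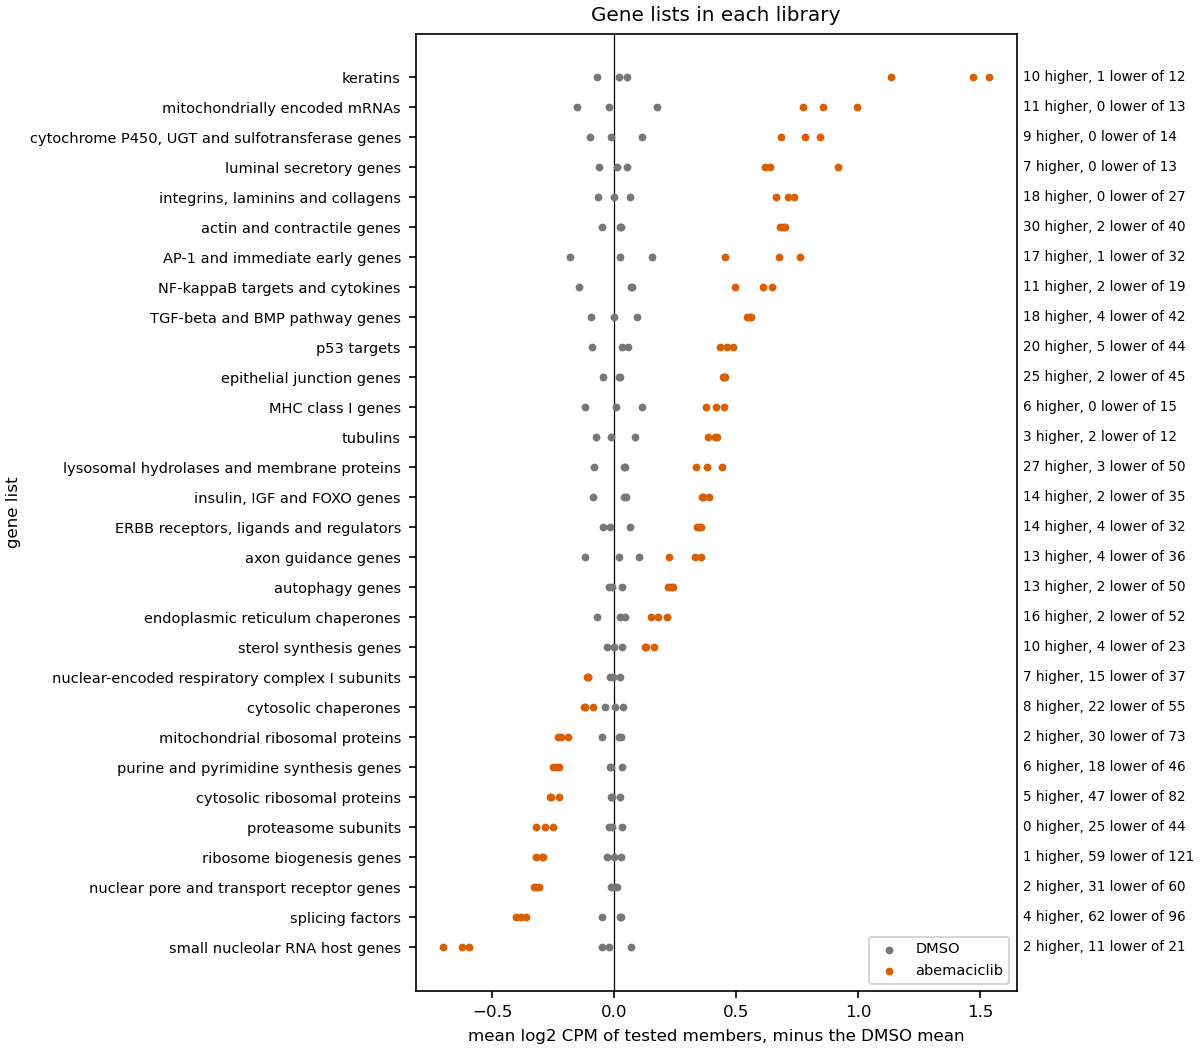
Score of 30 gene lists in each of the 3 DMSO (grey) and 3 abemaciclib (orange) libraries, being the mean log2 CPM of the tested members minus the mean of the DMSO libraries, with the counts of members higher and lower past the test at the right. The keratins and the mitochondrially encoded mRNAs lie furthest above 0 and the small nucleolar RNA host genes and splicing factors furthest below it.

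Chromatin genes changed in both directions. Of 101 polycomb, SWI/SNF and histone modifier genes 19 were higher and 32 lower (median −0.12). These were 18.8% and 31.7%, against 20.5% and 20.7% of all genes tested. Several histone demethylases rose, KDM5B from 80.8 ± 7.91 to 159 ± 4.18 CPM (log2 fold change 0.98 ± 0.10, adjusted p = 9.68e-09), KDM6B from 13.2 ± 0.799 to 27.5 ± 4.15 CPM (log2 fold change 1.05 ± 0.16, adjusted p = 5.51e-06) and KDM7A from 6.31 ± 1.49 to 14.1 ± 2.17 CPM (log2 fold change 1.18 ± 0.22, adjusted p = 0.000116), and by symbol family 6 of 17 KDM genes were higher and 1 lower. NSD2, a methyltransferase for histone H3 lysine 36, fell from 153 ± 8.02 to 70.6 ± 2.32 CPM (log2 fold change −1.12 ± 0.09, adjusted p = 9.24e-11). The nucleosome-binding HMGN symbols, 8 in number with pseudogenes included, were lower in 6. HMGN2, a cell cycle list member, fell by 1.59 (adjusted p 2.04e-11), and HMGN4 had 0.08 (adjusted p 0.592). Of 398 ZNF zinc-finger genes 71 were higher and 28 lower (median 0.10), where 20.5% of all genes were higher and 20.7% lower. ZNF552 rose from 15.2 ± 1.73 to 36.2 ± 1.93 CPM (log2 fold change 1.25 ± 0.15, adjusted p = 1.37e-07).

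Genes of nucleotide and one-carbon synthesis were lower more often than higher. Purine and pyrimidine synthesis genes were lower in 18 of 46 and higher in 6 (median −0.21). GMPS, which makes GMP, measured 148, 114 and 102 CPM in DMSO and 43.4, 41.3 and 51.8 CPM in abemaciclib (log2 fold change −1.41 ± 0.14, adjusted p = 9.76e-08), and PRPS2, which makes the ribose phosphate donor, 41.5, 46.6 and 43.8 CPM in DMSO and 16.6, 17 and 18.7 CPM in abemaciclib (log2 fold change −1.34 ± 0.13, adjusted p = 5.04e-09). Among one-carbon, serine and polyamine genes 12 of 34 were lower and 4 higher. PHGDH, the first enzyme of serine synthesis, read 43.3, 36.9 and 40.7 CPM in DMSO and 10.8, 7.73 and 9.10 CPM in abemaciclib (log2 fold change −2.12 ± 0.20, adjusted p = 1.49e-09). MTHFD1L, of the mitochondrial folate pathway, fell from 11.6 ± 0.848 to 5.33 ± 0.847 CPM (log2 fold change −1.14 ± 0.26, adjusted p = 0.00095). ATF4 pathway and amino acid supply genes were mixed, 16 of 44 higher and 10 lower, and ATF4 itself fell by 0.42 (adjusted p 0.00287). The amino acid transporter gene SLC43A2 rose from 18.1 ± 3.77 to 50.6 ± 3.99 CPM (log2 fold change 1.47 ± 0.24, adjusted p = 0.00035) and SLC36A4 fell from 10.8 ± 1.15 to 4.25 ± 0.277 CPM (log2 fold change −1.34 ± 0.27, adjusted p = 0.000219).

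Central carbon and lipid genes went both ways, where 20.5% of all genes tested were higher and 20.7% lower. The shares were 20.6% and 26.5% for tricarboxylic acid cycle enzymes and 22.2% and 13.9% for fatty acid synthesis, near those of all genes. Glycolytic enzymes had 30.4% and 30.4%, sterol synthesis genes 43.5% and 17.4%, and fatty acid oxidation and peroxisome genes 36.2% and 12.8%. Glycolytic enzymes were higher in 7 of 23 and lower in 7, GAPDH falling from 643 ± 60.6 to 414 ± 15.9 CPM (log2 fold change −0.63 ± 0.08, adjusted p = 7.28e-07), and tricarboxylic acid cycle enzymes higher in 7 and lower in 9 of 34. Sterol synthesis genes were higher in 10 of 23 and lower in 4, with SQLE from 76.6 ± 5.37 to 127 ± 3.71 CPM (log2 fold change 0.73 ± 0.09, adjusted p = 9.49e-08) and ACAT2 down from 84.5 ± 1.19 to 37.4 ± 2.48 CPM (log2 fold change −1.17 ± 0.11, adjusted p = 1.31e-09). Fatty acid synthesis and storage genes were higher in 8 of 36 and lower in 5; PLIN2, which coats lipid droplets, fell from 35 ± 1.36 to 9.67 ± 1.53 CPM (log2 fold change −1.85 ± 0.16, adjusted p = 2.65e-10) and FADS1, a desaturase, from 41.4 ± 1.25 to 15.7 ± 0.762 CPM (log2 fold change −1.39 ± 0.14, adjusted p = 7.07e-09), while FASN had 0.71. Genes of fatty acid oxidation and peroxisomes were higher in 17 of 47 and lower in 6.

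Transport and detoxification genes rose more often than they fell. Solute carriers were higher in 56 of 181 and lower in 26, with the membrane transporter SLC4A11 from 23.3 ± 2.77 to 67.9 ± 7.13 CPM (log2 fold change 1.53 ± 0.12, adjusted p = 9.07e-11). ABCC11, an efflux transporter of apocrine glands, stood at 4.75, 7.41 and 5.99 CPM in DMSO and 39.2, 41.5 and 52 CPM in abemaciclib (log2 fold change 2.82 ± 0.18, adjusted p = 1.08e-12). The list of cytochrome P450, UGT and sulphotransferase genes was higher in 9 of 14, and the other 5 did not pass (median 0.55). The 9 include ARNT (0.52) and UGGT2 (0.39), neither of which encodes an enzyme of these families. CYP4B1 stood at 2.08, 1.52 and 3.72 CPM in DMSO and 12.8, 12.6 and 13.4 CPM in abemaciclib (log2 fold change 2.38 ± 0.28, adjusted p = 9e-08). Targets of the oxidative stress factor NRF2 and glutathione genes were balanced, 13 of 46 higher and 15 lower, NQO1 falling from 288 ± 21.7 to 172 ± 5.80 CPM (log2 fold change −0.74 ± 0.08, adjusted p = 1.31e-08).

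The 3 metallothioneins tested, small proteins that bind zinc and copper, fell. MT2A measured 405, 411 and 414 CPM in DMSO and 54.4, 60.9 and 61.6 CPM in abemaciclib (log2 fold change −2.80 ± 0.09, adjusted p = 8.72e-19). MT1F fell from 29.6 ± 3.33 to 9.67 ± 1.11 CPM (log2 fold change −1.62 ± 0.19, adjusted p = 1.35e-07) and MT1X from 32 ± 5.20 to 11.6 ± 3.06 CPM (log2 fold change −1.48 ± 0.17, adjusted p = 8.6e-08). The zinc exporter gene SLC30A1 rose from 24.2 ± 3.24 to 41.6 ± 5.97 CPM (log2 fold change 0.78 ± 0.14, adjusted p = 8.03e-05), and MTF1, the factor that drives these genes when zinc is high, had 0.03 (adjusted p 0.855). The MT2A and MT1X promoters are shown because their genes fell together and because both hold copies of the metal response element core, searched as TGCGCNC and TGCACNC on both strands and set in capitals. They are the 250 bases before the RefSeq start, with 7 matches for MT2A (chr16:56608334-56608583, plus strand) and 4 for MT1X (chr16:56682220-56682469, plus strand).
MT2A: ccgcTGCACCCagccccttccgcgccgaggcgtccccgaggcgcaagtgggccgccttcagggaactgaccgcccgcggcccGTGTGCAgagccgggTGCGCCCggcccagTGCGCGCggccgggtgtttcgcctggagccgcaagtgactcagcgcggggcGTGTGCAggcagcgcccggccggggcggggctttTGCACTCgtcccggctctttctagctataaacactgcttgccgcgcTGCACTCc
MT1X: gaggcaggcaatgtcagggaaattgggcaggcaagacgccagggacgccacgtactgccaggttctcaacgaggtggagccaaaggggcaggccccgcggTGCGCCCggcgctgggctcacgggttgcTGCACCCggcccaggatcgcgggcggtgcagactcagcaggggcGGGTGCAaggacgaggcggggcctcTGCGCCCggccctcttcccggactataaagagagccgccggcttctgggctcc
Over promoters of all tested genes, 25.4% held TGCGCNC and 9.61% TGCACNC at least once.

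Other large changes were of genes outside the pathway and family lists. Among rises, RAI2, named for its induction by retinoic acid, stood at 0.890, 1.14 and 2.48 CPM in DMSO and 16.8, 15.9 and 13.9 CPM in abemaciclib (log2 fold change 3.30 ± 0.31, adjusted p = 1.97e-09, chrX:17800049-17861337). RTL5, a gene derived from a retrotransposon, read 11, 14.2 and 9.51 CPM in DMSO and 93.8, 64.2 and 76.1 CPM in abemaciclib (log2 fold change 2.74 ± 0.15, adjusted p = 3.12e-13). The water channel AQP3 had 2.67, 4.75 and 3.72 CPM in DMSO and 19, 29.1 and 32.6 CPM in abemaciclib (log2 fold change 2.79 ± 0.50, adjusted p = 0.00143), and ANKRD22 changed by 2.75. Each of these was low in vehicle, and full separation of the groups was a condition of the naming rule. A gene near the floor in DMSO, such as RAI2, could be tested only if a treated group lifted it. Low vehicle levels among these rises were therefore partly set by the filter and carry no weight. Among falls, PVALB, the calcium buffer parvalbumin, had 11.6, 11.4 and 8.89 CPM in DMSO and 1.40, 0.221 and 0.505 CPM in abemaciclib (log2 fold change −3.79 ± 0.36, adjusted p = 2.05e-09). No abemaciclib library held more than 7 counts of it. ARC, an immediate early gene of neurons, read 18.4, 15.8 and 14.9 CPM in DMSO and 2.00, 0.883 and 2.02 CPM in abemaciclib (log2 fold change −3.29 ± 0.34, adjusted p = 7.69e-09). The sodium channel subunit SCNN1B fell by 2.26 and the nicotinic receptor subunit CHRNA5 fell by 2.41.

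Other large falls were of nuclear proteins outside the cell cycle list. That list was written for this comparison and need not hold every gene that varies with the cell cycle. Whether these falls are separate from the cell cycle response was not tested. FAM111B, a nuclear protease, stood at 302, 297 and 295 CPM in DMSO and 30.0, 22.1 and 32.6 CPM in abemaciclib (log2 fold change −3.40 ± 0.13, adjusted p = 7.87e-16, chr11:59107185-59127412). DEK, a chromatin protein expressed in dividing cells, read 1161, 1055 and 995 CPM in DMSO and 209, 204 and 236 CPM in abemaciclib (log2 fold change −2.31 ± 0.11, adjusted p = 3.58e-12, chr6:18223860-18264548), and PSIP1, a chromatin reader, 263, 239 and 223 CPM in DMSO and 49.2, 34.7 and 33.9 CPM in abemaciclib (log2 fold change −2.61 ± 0.15, adjusted p = 2.77e-10). The groups lay far apart in each. WDR76 (−2.83), NRM (−2.52), MNS1 (−2.33) and MXD3 (−2.69), of the MYC network, fell as well. NUCKS1, a nuclear chromatin protein, fell from 3858 ± 109 to 2359 ± 48.2 CPM (log2 fold change −0.71 ± 0.07, adjusted p = 2.27e-09). The glucocorticoid receptor gene NR3C1 fell from 86.9 ± 5.66 to 42.9 ± 3.49 CPM (log2 fold change −1.02 ± 0.11, adjusted p = 2.88e-08).

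The remaining lists had calls in both directions, where 20.5% of all genes tested were higher and 20.7% lower. RAB GTPases were higher in 18 of 47 and lower in 7, iron genes in 12 and 4 of 32, aldehyde, alcohol and short-chain dehydrogenases in 14 and 6 of 39, and ABC transporters in 8 and 4 of 24. Neuronal and neuroendocrine genes were higher in 9 of 26 and lower in 3, and senescence-associated secreted factors in 7 and 1 of 14. The counts higher and lower were also taken for mTORC1 and AMPK genes (8 and 5 of 49), MYC network factors (3 and 5 of 21), nuclear receptors other than ER and PR (4 and 5 of 23), KLF and SP factors (5 and 1 of 19), circadian clock genes (8 and 4 of 20) and primary cilium genes (12 and 12 of 71).

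To ask which of these levels differed from those under fulvestrant, which degrades ER, the libraries of both drugs were compared. This test and that against DMSO share the abemaciclib libraries. Of the 11803 genes 3417 (29.0%) differed, 1831 (15.5%) higher under abemaciclib and 1586 (13.4%) lower. Translation genes were among them: 74 of 82 ribosomal proteins were higher under abemaciclib than under fulvestrant and 1 was lower, with a median of 0.51. For ribosome biogenesis genes the counts were 68 and 2 of 121 (median 0.37), and for small nucleolar RNA host genes 12 and 1 of 21. RPS16 and NOP56, both below DMSO, were above fulvestrant by 0.51 and 0.71. Tubulins were higher in 9 of 12, TUBA1A by 1.79, and sterol synthesis genes in 11 of 23, and the others of both lists did not pass.

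Other groups gave fewer or mixed calls. For the 13 mitochondrial mRNAs the log2 difference from fulvestrant ran from −0.21 to 0.43, and the lowest adjusted p was 0.0995. Contractile genes were higher in 8 of 40 and lower in 5, with 0.10 for ACTA2 and 0.13 for MYLK. Splicing factors were higher in 17 of 96 and lower in 4, and lysosomal genes higher in 7 of 50 and lower in 14. GDF15 was higher under abemaciclib by 3.09 and PVALB lower (−4.30). CDKN1A, although above DMSO, was below its fulvestrant level (−1.51), as were ERBB2 (−1.01) and TXNIP (−1.01). HSPB1 exceeded its fulvestrant level by 0.71.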

How the data were processed

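RNA of 12 CAMA-1 samples was sequenced from the 3′ end of polyadenylated transcripts (QuantSeq 3′ FWD). The authors trimmed the reads, aligned them to GRCh38 with STAR and deposited counts per gene from featureCounts 2.0.1 on GENCODE 35, and the deposited counts were used as they were. How the counting treated strand and reads shared by paralogues is not given in the sources used here. No molecular identifiers were stated, so depth and floors of 3 counts (0.57 to 0.89 CPM per library) cover counting error only. The table held 60656 rows, of which 44 had no name and 0 reads, and 76 symbols stood on several rows and are not named.

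Genes with at least 10 counts, by edgeR's filterByExpr, were fitted over all 12 libraries in edgeR 4.0.16 (R 4.3.3) with TMM scaling and the robust quasi-likelihood test. A call is a Benjamini-Hochberg adjusted p under 0.05, SE is the absolute log2 fold change divided by the square root of F, and the common biological coefficient of variation was 0.0918. Groups followed the labels, and the tests were abemaciclib against DMSO and abemaciclib against fulvestrant. Alternatives were DESeq2 1.42.0, other scalings and filters, the 6 libraries compared alone, thinning, lists or transcripts left out, the replicate number as a block, and each library left out.

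The lists, and the drugs compared, were chosen with earlier results of these data known. Genes are named by a rule: outside the cell cycle and oestrogen response lists, at a mean of at least 10 CPM in either group, called and with 3 libraries of each group that do not overlap. From these came the 12 largest rises and falls, up to 4 members of each list with the largest change and at least 1 of each direction, and the 5 highest levels in each direction. Some genes are not reported here. Core members of a pathway are given whether or not they passed. MYH9, MYL9, MYL12A, FLNA, ACTN1, GSN, GAA, PLBD2, CTSA, HMGN2, HMGN4 and members that make up a count of 5 or fewer were chosen after their values were seen. KRT8, KRT18, FOS, AREG and FASN also stand in the oestrogen response list. Gene positions are from GENCODE on GRCh38 and promoters from RefSeq on GRCh38.p14.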

Additional observations from a re-analysis of the deposited data

How the results depend on the processing

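The counts of 2415 genes higher and 2449 lower than DMSO stayed within 1.5 times under every change of tool, scaling, filter or library run. DESeq2 gave 2120 and 2192, the 6 libraries alone 2668 and 2660, and leaving out 1 library 2013 to 2188 and 1964 to 2177. Upper-quartile scaling moved the split to 2548 higher and 2293 lower. A 2-fold minimum left 592 and 656. Against fulvestrant the counts of 1831 and 1586 became 1558 and 1339 with DESeq2 and 1478 to 1804 and 1192 to 1549 without 1 library. The median of all genes moved by at most 0.022 on the log2 scale under any scaling.

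Same-numbered libraries did not deviate together (correlations of 0.083, 0.015 and −0.025 for replicates 1, 2 and 3). The labels do not state whether the numbers pair the samples, and these correlations cannot decide it. With the replicate block 2393 genes were higher and 2406 lower than DMSO, and 1789 higher and 1537 lower than fulvestrant.

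The median was recomputed for 15 of the lists, and none of these 15 changed sign in any setting run. With no filter on low counts the median log2 fold change was 0.76 for contractile genes, 0.26 for p53 targets and −0.316 for nuclear pore genes. With 10 counts required in every library it was 0.656 for keratins, 0.432 for integrins, laminins and collagens, 0.277 for p53 targets and −0.182 for small nucleolar RNA host genes, with fewer members tested. Without members in the cell cycle and oestrogen lists it was 0.604 for contractile genes, 2.167 for keratins and −0.314 for nuclear pore genes. Keratins had 1.471 in the 6 libraries alone and 1.45 after thinning, and nuclear pore genes −0.312 with upper-quartile factors. The cause of these moves was otherwise not tested. Leaving out 1 library gave 0.621 to 0.676 for actin and contractile genes, −0.273 to −0.215 for cytosolic ribosomal proteins, 0.31 to 0.387 for epithelial junction genes, 0.637 to 0.758 for integrins, laminins and collagens, −0.344 to −0.287 for nuclear pore and transport receptor genes, 0.313 to 0.4 for p53 targets and −0.572 to −0.451 for small nucleolar RNA host genes.

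Of the 183 genes named, 174 kept their side of the threshold and their direction under every setting. Most had been chosen as called and separated in these same libraries, so this count is largely set by the choice. FZD4 passed in the 6 libraries alone (adjusted p 0.0325). MDM2 and MTF1, which did not pass, crossed 0: MDM2 gave −0.115 to 0.03 without 1 library, and MTF1 −0.015 to 0.104 without 1 library and −0.059 after thinning. Genes near the floor of 3 counts are limited by depth.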
